A study of Mus musculus with 2 samples.

Results

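The dystrophin glycoprotein complex of muscle was examined through 8 of its genes, Dmd, Utrn, Dtna, Dag1, Sgca, Sgcb, Sgcd and Sspn, in mouse myotubes given exosomes. Its probes were all non-control probes named for 1 of these genes on both arrays, which gave 32 of 56605 distinct probes, for 8 of 37325 gene names. C2C12 is an established mouse myoblast line whose cells, kept in 2% horse serum, fuse within 4 to 6 days into the myotubes used here for both groups. Labelled cRNA made from total RNA was hybridised to 2 one-colour Agilent arrays, 1 per group. The culture labelled KPC-exo received 4 µg of exosomes, small vesicles shed by cells, for 24 h. They came from KPC cells, a mouse pancreatic cancer line raised from tumour tissue of an engineered mouse that carries Cre under the pancreatic Pdx1 promoter. The control culture, labelled MPDC-exo, was given vesicles from duct epithelium of the mouse pancreas, a cultured line, likewise for 24 h, at a dose that the sources used here do not state. Both groups are the same cell line, a culture model without the nerve, vessels and load of muscle tissue, and both received exosomes. The comparison asks which messages of the complex differ in myotubes given cancer cell exosomes, and with 1 array per group it has no replicate check and no p-value.

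The complex ties the cytoskeleton of a muscle fibre to the basement membrane around it. Dystrophin binds filamentous actin inside the cell and beta-dystroglycan at the membrane, alpha-dystroglycan binds laminin outside, and the sarcoglycans with sarcospan form a subcomplex that steadies the link. Loss of dystrophin causes Duchenne muscular dystrophy and loss of single sarcoglycans causes limb-girdle muscular dystrophies, while utrophin, the autosomal relative of dystrophin, can take its place in part.

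What the arrays measured for each gene depends on the 60-base stretch its probe reads. The 7 probes printed here are examples, 2 of the Dmd probes that gave no signal well above background and 5 of the measured probes of Utrn, Sgca and Sgcd, read 5′ to 3′ in the sense of the transcript, with positions on the mouse build mm9 as the files give them. Capitals mark the letters GTGAGC in 1 probe, and all other letters are in lower case.
Dmd A_55_P2167922, chrX:81132417-81132476 (+): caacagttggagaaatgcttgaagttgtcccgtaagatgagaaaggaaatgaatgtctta
Dmd A_52_P306697, chrX:82389391-82389450 (+): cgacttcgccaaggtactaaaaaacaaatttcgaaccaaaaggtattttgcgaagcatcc
Utrn A_52_P257071, chr10:12453709-12453768 (-): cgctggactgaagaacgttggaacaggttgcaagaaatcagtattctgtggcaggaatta
Utrn A_55_P2212027, chr10:12221228-12221287 (-): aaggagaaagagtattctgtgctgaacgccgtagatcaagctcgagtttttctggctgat
Utrn A_55_P2729001, chr10:12221153-12221212 (-): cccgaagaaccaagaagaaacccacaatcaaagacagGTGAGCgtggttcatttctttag
Sgca A_55_P2007384, chr11:94824546-94824605 (-): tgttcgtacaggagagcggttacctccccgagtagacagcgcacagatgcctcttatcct
Sgcd A_55_P2138714, chr11:46939058-46939117 (-): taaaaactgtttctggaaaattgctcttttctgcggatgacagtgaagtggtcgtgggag

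Both Dmd probes failed the background test on each array. The Utrn, Sgca and Sgcd probes were well above background on both. Each of the 7 sequences can be read through in at least 1 sense frame without a stop codon. The last 2 Utrn probes lie 15 bases apart, and A_55_P2729001 was designed on a RIKEN cDNA clone. It holds GTGAGC from its base 38. These letters, searched on the probe strand, were in 1 of the 32 probes of the complex and in 655 of all 56605 probes (1.16%). Their reverse complement was in 595. The exon or UTR that each probe lies in is not given here, because no annotation of this build was used.

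Before the values, their scale. A level is the log2 processed signal of a probe minus the 75th percentile of its array, which was 380 signal units after MPDC-exo and 639 units after KPC-exo. A difference is the KPC-exo level minus the MPDC-exo level, given ± the spot error of the scanner software combined over both arrays, and a probe was measured where that software called it well above background on both. Repeat spots of 292 probes had a median SD of 0.03 (log2) on either array, and different probes of 1 gene differed with a pooled SD of 0.36 over 5736 genes. None of these errors covers variation between cultures. Over all 16989 measured genes the median difference was 0.06 and 58.8% lay above 0. The 7 spike-in probes placed every gene 1.00 higher on the KPC-exo array than the 75th percentile did, so every direction reported is relative to the bulk signal of each array.

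Messages of every gene of the complex except Dmd were measured in these myotubes. Of the 8 genes, 7 were measured on both arrays through their brightest probe, and 0 of these 7 were at least 1.5-fold apart, against 7.43% of all measured genes. That background count of 1262 genes fell to 709 with normexp background correction and to 183 when the filter on dim probes was raised. The raised filter also leaves fewer genes to count, so 183 cannot be set against the 7.43%. The differences ran from -0.34 at Dag1 to 0.48 at Sgca with a median of -0.06, and 2 of the 7 lay above 0, but with spike-in centring all 7 were higher on the KPC-exo array. In RNA of a whole culture, fewer myotubes and less message per myotube cannot be told apart. Of the 32 probes, 17 were measured on both arrays, 2 on the MPDC-exo array only, 0 on the KPC-exo array only and 13 on neither. Over all probes 44.1% were well above background on both arrays and 50.5% on neither. The differences of the 17 lay above 0 at 8 probes and below 0 at 9, and 9 were within their spot error, while with spike-in centring 1 stayed below 0. The share of all measured probes within their spot error is not given here. The 13 probes on neither array had signals of 6.20 to 8.02 units after MPDC-exo and 9.40 to 11.5 after KPC-exo, and their GC content had a median of 36.7%, against 45.0% in the 17 measured ones. Over all probes the same medians were 41.7% and 43.3%.

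**Figure D1:**
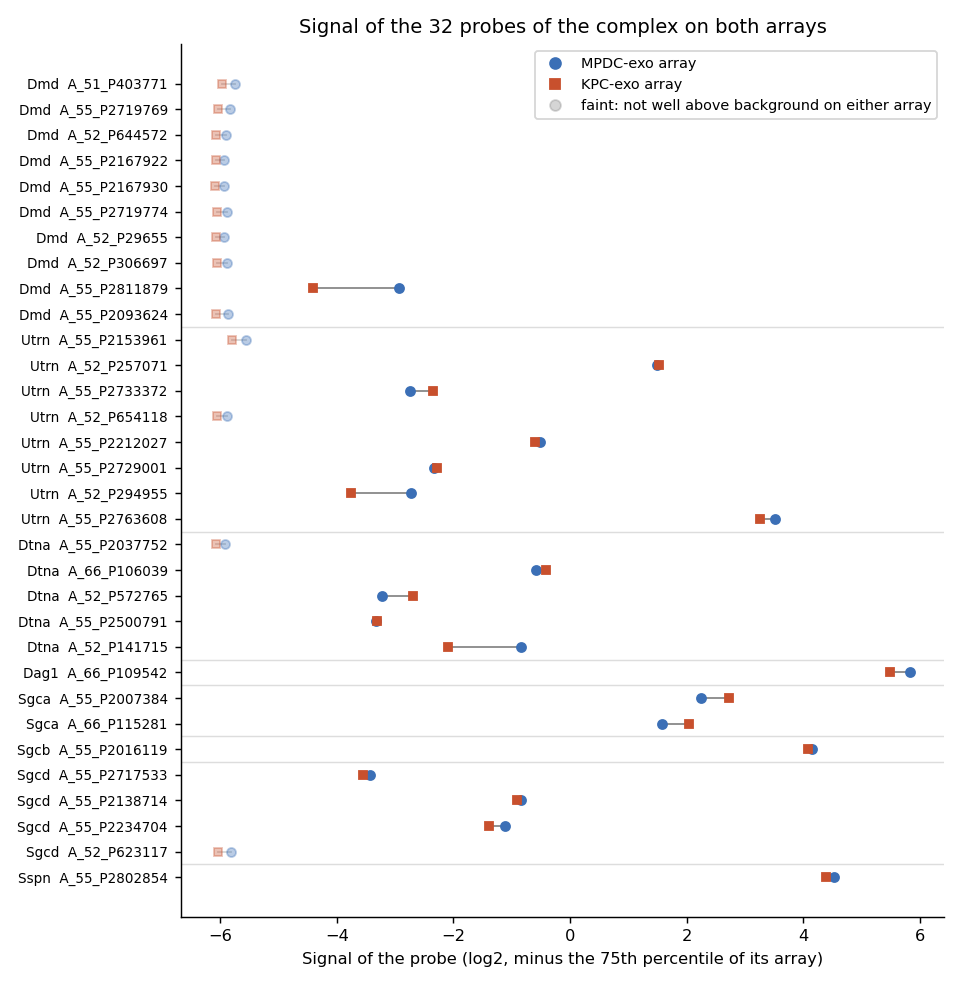
Level of each of the 32 probes (log2 signal minus the 75th percentile of its array, horizontal axis) on the MPDC-exo array (circles) and the KPC-exo array (squares), 1 array each. Faint symbols are the 13 probes not well above background on either array, 9 of them for Dmd. Levels of different probes cannot be set against each other.

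Dystrophin itself, the actin-binding protein at the inner face of the membrane, was detected by few of its probes. Of its 10 probes, spread over 2391 kb of the X chromosome, 9 were well above background on neither array, against 50.5% of all probes. These 9 had levels of -5.94 to -5.75 after MPDC-exo and -6.09 to -5.97 after KPC-exo, and the software put the error of each at 100.2% or more of its signal. They include the 2 printed Dmd probes. Such values are the surrogate the software writes for small signals, so no direction can be read from them, and the message may still be present below detection. The 2 printed probes list a RefSeq transcript of Dmd, as does the probe that was detected. Others of the 9, such as A_55_P2719769 and A_52_P644572, list a RIKEN cDNA clone, so the 9 need not all read the same message.

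The remaining Dmd probe, A_55_P2811879 at chrX:82449703-82449762 (+), is the one next to the most 3′ and read 49.8 signal units after MPDC-exo and 30.1 after KPC-exo. Its levels were -2.93 and -4.41, and it was well above background after MPDC-exo only. Set against the dimmest signal well above background after KPC-exo, it was lower there by 1.77-fold, or 0.83 on the log2 scale. This bound leaves out the spot error, which was 0.53 (log2) for the difference between the arrays. With spike-in centring that bound became -0.18 and no direction was left. Over all probes 1.82% were well above background after MPDC-exo only, and 53.8% of those had a bound of at least 1.5-fold.

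Utrophin joins the same partners as dystrophin along most of a muscle cell's early life and at the neuromuscular junction later. Its brightest probe, A_55_P2763608 at chr10:12102004-12102063 (-), had a level of 3.51 after MPDC-exo and 3.26 after KPC-exo. The difference of -0.26 ± 0.20 is 1.20-fold and turned to 0.74 with spike-in centring. Across the other settings for scaling, background and flags the Utrn gene value ran from -0.32 to -0.22, leaving aside the mean over its probes, which was 0.03.

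The other 4 Utrn probes measured on both arrays had values nearer to 0 or above it, and 3 of them differed from A_55_P2763608 by no more than the combined spot error. The printed probe A_52_P257071 had signals of 1072 and 1833 units, a difference of 0.03 ± 0.20. The printed neighbours A_55_P2212027 and A_55_P2729001 differed by -0.10 ± 0.21 and 0.06 ± 0.26, which are 0.16 ± 0.33 apart. The gap between these neighbours is within its error. A_55_P2733372 lists a RIKEN cDNA clone and no RefSeq transcript, so it need not read the same message as A_55_P2763608. It had levels of -2.74 and -2.34, a difference of 0.40 ± 0.29. It stood 0.66 ± 0.35 above A_55_P2763608, but its difference shrank to 0.04 with normexp background correction. That correction adds an offset of 50 signal units, which by construction narrows the signal ratio of dim probes.

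A further Utrn probe, A_52_P294955 at chr10:12125761-12125820 (-), was well above background after MPDC-exo only. It read 57.1 signal units there and 47.2 on the KPC-exo array, just under the limit of 47.3 on the latter. Set against that limit, its level after KPC-exo was 2.03-fold lower, or 1.02 on the log2 scale. The plain difference was -1.02 ± 0.39, and the bound leaves this spot error out. The bound ran from 0.72 to 1.08 across 8 other settings and came to 0.02 with spike-in centring. The next probe towards the 3′ end is A_55_P2763608, whose difference was -0.26. The remaining Utrn probes, A_55_P2153961 at the 5′ end and A_52_P654118 further along, were well above background on neither array. They are named for the predicted variants X9 and X13. The 5 measured Utrn probes spanned 0.66 in their differences, and 70.5% of the 61 genes with 5 measured probes spanned as much or more.

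**Figure D2:**
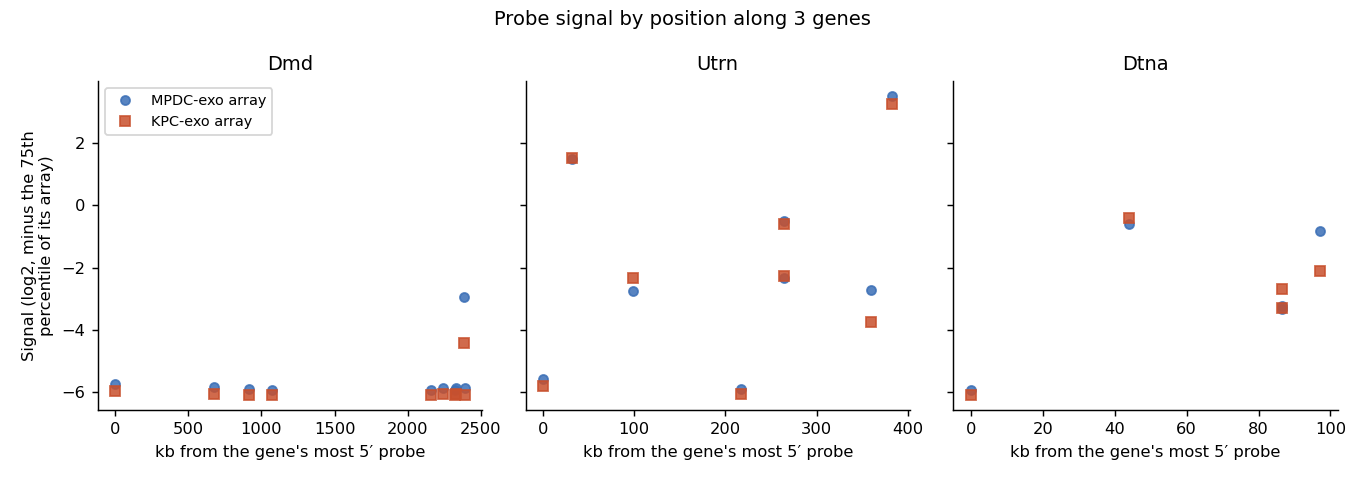
Level of each probe of Dmd, Utrn and Dtna (log2 signal minus the 75th percentile of its array, vertical axis) against its distance in kb from the most 5′ probe of its gene, with circles for the MPDC-exo array and squares for the KPC-exo array. In Dmd only 1 probe near the 3′ end leaves the floor, and in Dtna the symbols are far apart only at the most 3′ probe, by -1.26.

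Alpha-dystrobrevin, which binds dystrophin and carries the syntrophins, gave the widest split between probes of 1 gene in the complex. Its brightest probe, A_66_P106039 at chr18:23751512-23751571 (+), had levels of -0.59 and -0.42, a difference of 0.17 ± 0.21, which is within the error. The most 3′ probe, A_52_P141715, had levels of -0.84 after MPDC-exo and -2.10 after KPC-exo. Its signal was lower even before centring, at 213 and 149 units, although the KPC-exo array was the brighter one. The difference of -1.26 ± 0.23 is 2.40-fold and 5.54 times the spot error, and 0.66% of measured probes were as low or lower.

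This probe is named for transcript variant 5 and its 60 bases span 661 bases of the genome, chr18:23804787-23805447 (+), so it crosses an exon junction. It was the only measured probe of the complex that was lower by 1.5-fold or more after KPC-exo, 1 of 17 against 5.43% of all measured probes, and 1.52% of these were lower by 2-fold. None of the 17 (0) was as much higher, against 4.64%. The value was -0.97 with normexp background correction and -0.26 with spike-in centring, and lay between -1.34 and -1.23 in the other settings. When measured probes were split into 4 equal classes by signal, it fell in the second dimmest, of which 2.07% were at least 2-fold lower. Only 1 spot per array reads it.

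The other measured Dtna probes did not follow, but they list other transcripts than A_52_P141715 does, so they need not read the same message. A_55_P2500791, named for variant 7, had levels of -3.34 and -3.31, and its difference of 0.02 ± 0.39 stood 1.29 ± 0.45 above that of A_52_P141715, 10.6 kb away. A_52_P572765, named for the predicted variant X10, had levels of -3.23 and -2.69, a difference of 0.54 ± 0.33. With normexp background correction, whose offset of 50 signal units narrows the ratio of dim probes by construction, it came to -0.01. A_52_P572765 shares 21 bases with A_55_P2500791, and the difference between that pair, 0.51 ± 0.51, is no larger than its error. A_66_P106039, named for variant 8, stood 1.43 ± 0.31 above A_52_P141715. The fifth probe, A_55_P2037752, was well above background on neither array. The 4 measured Dtna probes spanned 1.80, and 1.58% of the 316 genes with 4 measured probes spanned as much, with a median span of 0.66. Because of this split the gene value of Dtna was 0.17 by its brightest probe, -0.13 by the mean of its probes, and -1.23 once spots with a flagged background were dropped, when A_52_P141715 becomes its brightest.

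**Figure D3:**
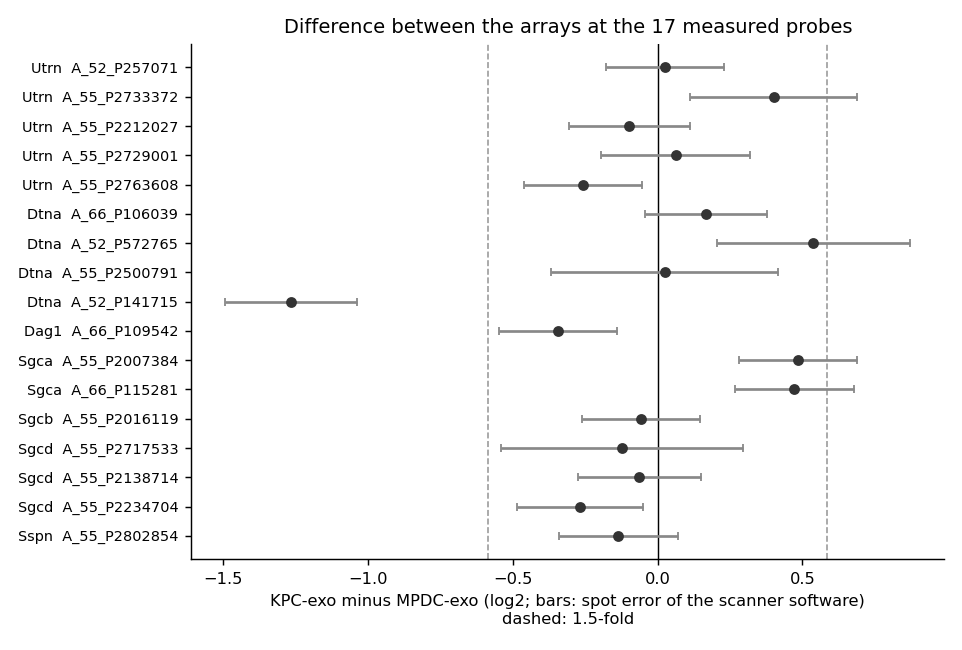
Difference (KPC-exo minus MPDC-exo, log2) of the 17 probes measured on both arrays, with the spot error of the scanner software as bars and 1.5-fold as dashed lines. Only the Dtna probe at -1.26 lies beyond a dashed line, and spike-in centring would move every point up by 1.00.

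Dystroglycan, the precursor of the alpha and beta subunits that link laminin to dystrophin, was read by a single probe, Dag1 A_66_P109542 at chr9:108108324-108108383 (-). It had a signal of 21545 units after MPDC-exo and 28556 after KPC-exo. The levels were 5.83 and 5.48, and the difference of -0.34 ± 0.20, or 1.27-fold, was the lowest of the 7 genes. It was 1.68 times its spot error, and 9.24% of all measured genes were as low. The value ran from -0.40 to -0.29 across 9 settings, the reported one included, and was 0.66 with spike-in centring.

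In the sarcoglycan and sarcospan subcomplex, Sgca stood apart from Sgcb, Sgcd and Sspn. Alpha-sarcoglycan, the subunit made mainly in striated muscle, had levels of 2.25 after MPDC-exo and 2.73 after KPC-exo at the printed probe A_55_P2007384. Its second probe, A_66_P115281, lies at chr11:94824357-94824537 (-) and spans 181 bases of the genome, so it crosses a junction. It had levels of 1.57 and 2.04. The differences, 0.48 ± 0.20 and 0.47 ± 0.20, were 0.01 apart, and both probes were higher on the KPC-exo array under every scaling. Both probes read neighbouring stretches of the same transcript, from its bases 1344 and 1412, so they do not sample separate parts of the message.

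The Sgca difference is 1.40-fold, short of 1.5-fold, and 6.12% of all measured genes were as high. Together with the Dtna probe A_52_P141715 these were the only 3 of the 17 measured probes of the complex whose difference exceeded 2 spot errors. The share of all measured probes beyond 2 spot errors is not given here, so this count has no background to be set against. The gene value ran from 0.42 to 0.52 across 9 settings and was 1.48 with spike-in centring. Measured from the median of all genes under the same setting it was 0.40 to 0.44 higher. Of the 4027 genes with 2 measured probes, 97.4% spanned as much or more, with a median span of 0.27. The Sgca probes are close neighbours, and how near the probes of the other genes lie is not given here.

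Beta-sarcoglycan, which with delta-sarcoglycan forms the core of the subcomplex, had levels of 4.15 and 4.09 at A_55_P2016119, chr5:74026579-74026638 (-). The difference of -0.06 ± 0.20 is within its error. Delta-sarcoglycan had levels of -0.84 and -0.90 at the printed probe A_55_P2138714, a difference of -0.06 ± 0.21. At these probes both arrays thus gave nearly equal levels for this core, relative to their bulk signal, and with spike-in centring both genes were 0.94 higher on the KPC-exo array. The Sgcb probe had a flagged background, and Sgcb had no value once such spots were dropped.

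The other measured Sgcd probes also had values below 0, which spike-in centring places above it. A_55_P2234704, named for the predicted variant X3, differed by -0.27 ± 0.22 with levels of -1.12 and -1.39. A_55_P2717533 had levels of -3.43 and -3.55, a difference of -0.12 ± 0.42 that is within its error. The span of these 3 probes was 0.20, and 85.9% of 1305 genes with 3 measured probes spanned as much. The last, A_52_P623117, has a GC content of 25.0% and was above background on neither array.

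Sarcospan, the small membrane-spanning protein that completes the subcomplex, had levels of 4.52 and 4.39 at its single probe A_55_P2802854, chr6:145913663-145913722 (+). Its difference of -0.14 ± 0.20 is within the error, ran from -0.19 to -0.10 across 9 settings and was 0.87 with spike-in centring.

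**Figure D4:**
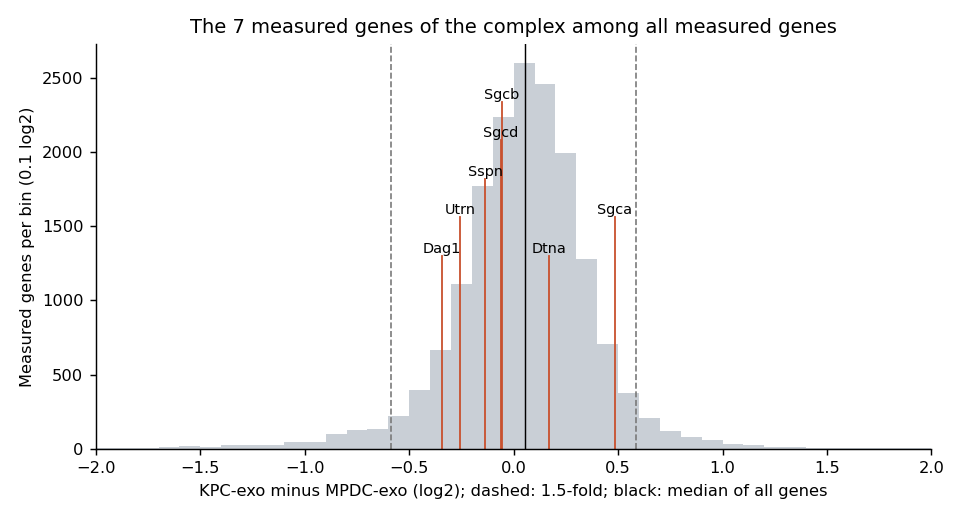
Number of measured genes per bin of 0.1 (vertical axis) by difference (KPC-exo minus MPDC-exo, log2, horizontal axis), with red lines at the 7 measured genes of the complex. The heights of the red lines carry no value. All 7 lie inside the dashed lines of 1.5-fold, from Dag1 at -0.34 to Sgca at 0.48, and spike-in centring would move genes and lines alike by 1.00.

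The remaining subunits and further proteins linked to the complex had a median difference of 0.30 over the 10 measured of 15 listed genes. The median of all measured genes was 0.06. Of the 10, 8 lay above 0, against 58.8% of all measured genes, and 0 were at least 1.5-fold apart. Cav3, the caveolin of muscle, had levels of 3.80 and 4.30, a difference of 0.49 ± 0.20. Mapk12, the p38 gamma kinase that binds syntrophin, differed by 0.48 ± 0.20, but its other measured probe differed by -0.25. The lowest were beta-2-syntrophin, Sntb2, with -0.55 ± 0.21 and dysbindin, Dtnbp1, with -0.14 ± 0.20. Outside the naming rule, and chosen after their values were seen, are the 3 genes with no probe well above background, Sgcz, Sntb1 and Sntg1, and the 2 detected on 1 array only, Sntg2 and Nos1. Among the dystroglycan ligands, 11 of 13 were measured, with a median of 0.21, 6 above 0 (58.8% in all genes) and 0 at least 1.5-fold apart. The proteoglycan perlecan, Hspg2, differed by 0.30 ± 0.20, with -0.14 at its other measured probe, and the laminin chain of muscle basement membrane, Lama2, by 0.28 ± 0.20. Biglycan, Bgn, had the lowest value with -0.33 ± 0.20, although its probes ranged from -0.33 to 0.79. The laminin chain Lama5 differed by -0.23 ± 0.20. The median of this list moved with the processing, to 0.07 with normexp background correction, 0.03 once spots with a flagged background were dropped, -0.03 with the mean over probes and -0.0042 when the filter on dim probes was raised, and the mean of its genes was 0.07.

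The enzymes that build the laminin-binding sugar on alpha-dystroglycan had a median of 0.22 over the 16 measured of 18 listed genes. Of them 15 lay above 0, against 58.8% of all genes, 13 lay above the median of all genes and 0 were at least 1.5-fold apart. Rxylt1, a xylosyltransferase of that chain, differed by 0.50 ± 0.21 and B3galnt2, which adds N-acetylgalactosamine to it, by 0.44 ± 0.20. The lowest were Pomgnt2 with -0.24 ± 0.20 and Dpm2, a subunit of the mannose donor synthase, with 0.02 ± 0.20. The substrate of these enzymes, Dag1, differed by -0.34.

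The links to actin and to intermediate filaments had a median of -0.09 over the 13 measured of 14 listed genes, and 5 lay above 0, against 58.8% of all genes. At least 1.5-fold apart was 1 gene, or 1 of 13 against 7.43% of all genes. This was the cytolinker plectin, Plec, with levels of 6.58 and 7.20 and a difference of 0.62 ± 0.20, while its other probe differed by 0.00. Ankyrin-G, Ank3, was next with 0.17 ± 0.20. The lowest were gamma-actin, Actg1, with -0.55 ± 0.20 and probes from -0.71 to -0.35, and the muscle intermediate filament protein desmin, Des, with -0.41 ± 0.20. The integrin alpha 7 beta 1 group, the parallel laminin receptor of muscle, had a median of -0.01 over 8 of 8 genes, a mean of 0.07, and 0 genes 1.5-fold apart. Its kinase-like partner Ilk differed by 0.30 ± 0.20 and Lims1 by 0.29 ± 0.20, with -0.11 at the other measured Lims1 probe. The receptor chains differed by -0.12 ± 0.20 for Itgb1 and -0.06 ± 0.20 for Itga7, and their other probes reached -0.39 and -0.55. With spike-in centring the medians of all 5 lists lay between 0.91 and 1.30.

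**Figure D5:**
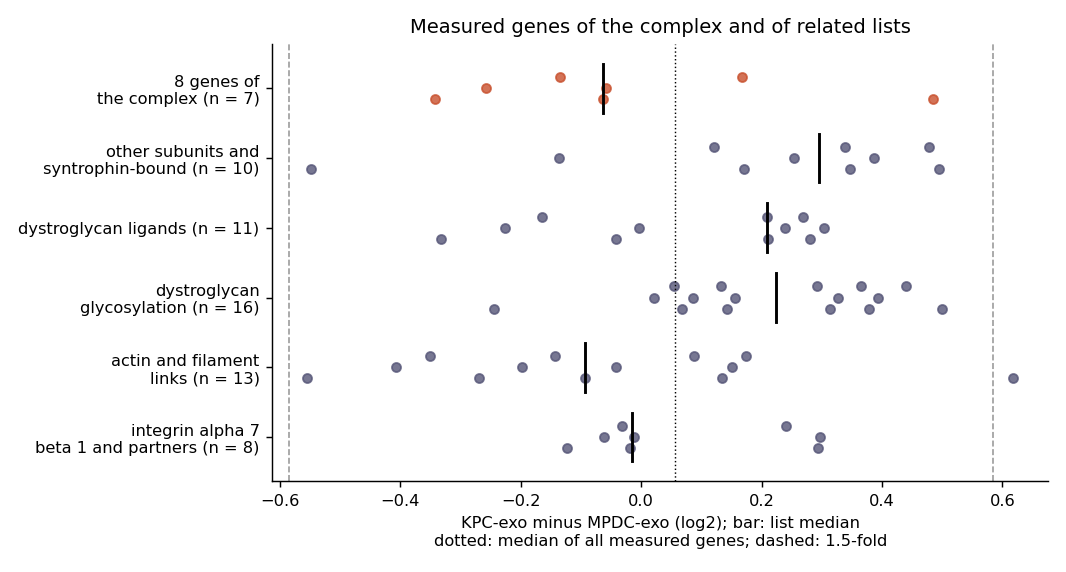
Difference (KPC-exo minus MPDC-exo, log2) of each measured gene in the complex (upper row, 7 genes) and in 5 related lists, with a bar at each list's median, a dotted line at the median of all measured genes (0.06) and dashed lines at 1.5-fold. The lists' medians run from -0.09 for actin and filament links to 0.30 for the other subunits, and spike-in centring would move every point up by 1.00.

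The labelled cell type was checked against markers. All 18 myotube markers were measured on both arrays, with a summed level (log2) of 9.74 after MPDC-exo and 9.81 after KPC-exo. Of the 8 myoblast markers 7 were measured, with summed levels of 8.13 and 8.07, and Myf5 was not above background. Of 10 markers of pancreatic and other epithelium 3 were measured, Krt19, Cldn7 and Sox9, with summed levels of 0.66 and 0.55, while Epcam, Cdh1, Krt7, Krt8, Krt18, Cldn4 and Muc1 were not well above background. Fibroblast markers were measured for 7 of 8 genes with summed levels of 9.27 and 9.22, smooth muscle markers for 4 of 5 with 8.99 and 8.66, and macrophage markers for 4 of 5 with 2.897 and 2.999. Endothelial, adipocyte and Schwann cell markers were each measured for 1 gene. The part of these cell types in the differences of the complex was not tested.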

How the data were processed

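Per the labels, RNA of 2 cultures was amplified to Cy3-labelled cRNA. Per the submitters' processing notes, the scanner software was Agilent Feature Extraction 10.7.1.1. Per the file headers, each deposited scanner file gives linear intensity per spot, background-subtracted, with a surrogate in place of small values. The sources used here do not say how the deposited value table, on the log2 scale, was made. It correlated with the scanner values at 1.00 across probes and served as an alternative. Both arrays lay on 1 slide, read in 1 scan, and 0 spots were saturated.

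From the intensities, log2 was taken, non-uniform and outlier spots were left out (102 and 166), spots of a probe were averaged and the 75th percentile of each array was subtracted. The brightest probe stood for its gene. Where a probe was well above background on 1 array only, its level was set against the higher of its own level and the lowest level well above background on the other. From each list the 2 highest and 2 lowest measured genes are named. The members and lists were chosen with earlier results of these data known. Names were updated through RefSeq accessions of GRCm38.p6, which 32994 probes matched, and positions are those of mm9 in the files. In all, 14 alternatives were run, and the calculations were tested on simulated data. Python 3.11.15, numpy 2.4.6, pandas 2.3.3, matplotlib 3.10.9, R 4.3.3 and limma 3.58.1 (for normexp with an offset of 50, quantile and loess) were used. The full genotype of the mice behind the KPC line is not reported here.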

Additional observations from a re-analysis of the deposited data

How the results depend on the processing

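The 14 alternatives changed the scaling, the background correction, the flags, the filter, the probe rule, the fold threshold or the summary of a list. Spike-in centring, which adds 1.00 to every difference by construction, gave 0.66 for Dag1, 1.17 for Dtna, 1.48 for Sgca, 0.94 for Sgcb and for Sgcd, 0.87 for Sspn, 0.74 for Utrn, 0.94 for the median of the complex and -0.26 for the Dtna probe A_52_P141715. It left no direction for the Dmd probe A_55_P2811879, whose bound became -0.18. Under it 7 genes and 16 probes of the complex were at least 1.5-fold apart, as were 15918 of all 16989 measured genes. The lists then had 12 genes apart and a median of 0.91 (actin and filament links), 16 and 1.22 (glycosylation), 11 and 1.21 (dystroglycan ligands), 8 and 0.99 (integrin), and 9 and 1.30 (other subunits). With background-flagged spots left out, Dtna was -1.23 through another probe, Sgcb had no value, 1 gene of the complex and 0 of the actin list were 1.5-fold apart. The mean over probes gave -0.13 for Dtna, 0.027 for Utrn and -0.027 for the median of the ligands, which a stricter filter put at -0.0042. Without a filter 1 gene of the complex, 2 of the actin list, 1 of the glycosylation list and 2 of the other subunits were 1.5-fold apart. At 2-fold the actin list had 0. The other subunits had 1 under the percentile of detected probes, cyclic loess and median centring. Over all genes 1262 were 1.5-fold apart, 709 with normexp correction, 183 with the stricter filter and 5732 with no filter. A change of filter also changes how many genes are counted. Normexp correction, whose offset of 50 signal units narrows the ratio of dim probes by construction, gave -0.97 for A_52_P141715. The cause was not tested except where the setting's construction states it. Sgca kept its direction in every setting run for it. Dag1, Sgcd and Sspn kept theirs in every setting other than spike-in centring, as did Sgcb wherever it had a value.

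No paired analysis was possible because there was 1 array per group, and for the same reason no array could be left out. Signal over background limits Dmd and the dim probes of Utrn, Dtna and Sgcd. Among 4 equal classes of measured probes by signal, 21.7% of the dimmest were at least 1.5-fold apart, against 1.75% of the brightest. The difference between cultures given the same exosomes is not known from 1 array per group.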
